A study of Mus musculus with 20 samples.

Results

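BNAP/GRP1 and GRP2/MP3 are populations of cells that were sorted from the periventricular zone of mouse pups, and the 4 libraries of each were set against each other here, batch by batch. They are 8 of the 20 libraries of the series. Every library came from pooled litters of Swiss Webster pups of both sexes, killed at postnatal day 5, and the labels give no treatment, so no library stands for a single animal. BNAP/GRP1 stands for bipotential neuron astrocyte progenitor and glial-restricted progenitor 1, and GRP2/MP3 for glial-restricted progenitor 2 and multipotential progenitor 3. In the study's gating both were taken from the NG2+ CD140a- gate and were CD133-, with BNAP/GRP1 CD15+ and GRP2/MP3 CD15-. Each gate therefore holds at least a pair of named progenitors, and surface CD15 is the only sorting antigen that parts them. The batch number in the labels, 1 to 4, pairs the libraries. All genes with at least 1 RPKM (reads corrected for the length of a gene and the depth of its library) in at least 4 of the 8 libraries were compared, 16143 of the 45705 genes in the table. Differences are BNAP/GRP1 minus GRP2/MP3 in log2(RPKM + 1), so a positive value is higher in BNAP/GRP1, and the addition of 1 makes the change of low genes look smaller than it is.

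CD15, or LeX, is a sugar epitope that fucosyltransferases complete on glycoproteins and glycolipids of neural stem and progenitor cells. NG2, the product of Cspg4, is carried by oligodendrocyte progenitors and also by pericytes, the mural cells that wrap brain capillaries, share a basement membrane with the endothelium and help to maintain the blood-brain barrier. Microglia are the resident macrophages of the brain. In the first postnatal week they are numerous around the ventricles and in the developing white matter, where many are phagocytic.

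The libraries differed among themselves as much as the populations did. The smallest steps in the deposited values put 1 read on a gene of 1 kb at about 0.322, 1.42, 0.228 and 8.15 RPKM in BNAP/GRP1 of batches 1 to 4 and at 0.921, 1.38, 0.392 and 1.11 RPKM in GRP2/MP3. BNAP/GRP1 of batch 4 was thus the shallowest library, with a depth of about 0.0395 of that of BNAP/GRP1 of batch 1. Many of its values between 5 and 15 RPKM are close to what 1 read on a gene of 1 kb gives. Its Pearson r with the GRP2/MP3 libraries, across genes in log2(RPKM + 1), was 0.28 to 0.45. The libraries of batch 3 were the most alike of all pairs of these 8 libraries (r = 0.97). This likeness was not particular to the 2 populations. Each had an r of 0.97 with the batch 3 libraries of GRP3 and PFMP, other sorted populations of the series, and of 0.94 with that of the neural stem cells. Within the pair, 87.2% of the genes tested differed by less than 0.5 on the log2 scale, against 36.6%, 25.9% and 16.5% in batches 1, 2 and 4.

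In batches 1 and 2 the libraries resembled each other more across the batch numbers than within them. BNAP/GRP1 of batch 1 had an r of 0.95 with GRP2/MP3 of batch 2 and of 0.90 with that of its own batch. BNAP/GRP1 of batch 2 had an r of 0.83 with GRP2/MP3 of batch 1 and of 0.76 with that of its own. The differences of batches 1 and 2 ran against each other across genes (r = -0.48 over the 16143 genes, which are not independent replicates), and 28.4% of genes had the same sign in both. Whether a batch number of one of these libraries is wrong was not tested, so counts for many lists are also given in a form that needs no pairing: genes for which both libraries of one population were above both of the other in batches 1 and 2.

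**Figure D1:**
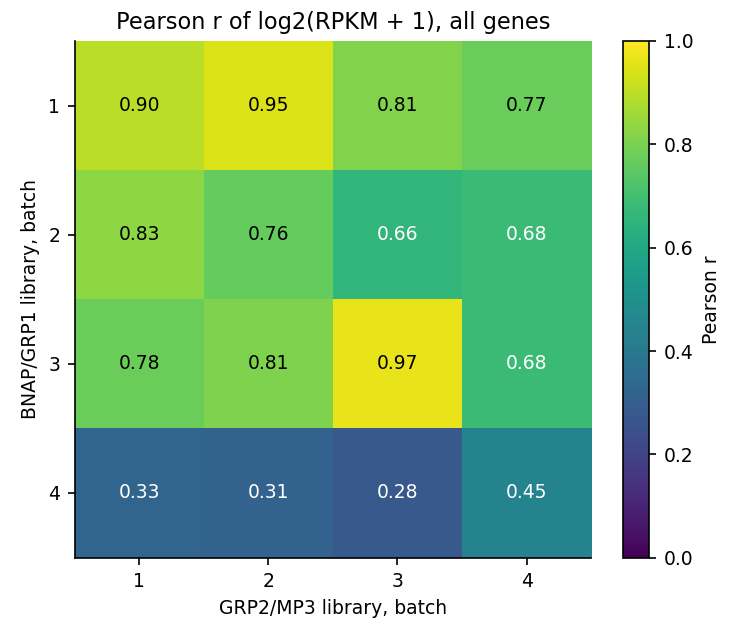
Pearson correlation, across all genes in log2(RPKM + 1), of each BNAP/GRP1 library (rows, by batch) with each GRP2/MP3 library (columns, by batch). The batch 3 pair stands at 0.97, the row of BNAP/GRP1 of batch 4 lies between 0.28 and 0.45, and the libraries of batches 1 and 2 are closer across batch numbers (0.95 and 0.83) than within them (0.90 and 0.76).

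No gene passed an adjusted p of 0.05 in the paired limma fit over the 4 batches (percent of genes called 0), and the smallest adjusted p was 0.277. At an unadjusted p under 0.05, 198 genes were higher in BNAP/GRP1 (1.23%) and 87 were higher in GRP2/MP3 (0.539%). The median difference of all genes was 0.17, and scaling the libraries by median of ratios or by quantiles moved it to -0.05 and -0.04 and the split of these genes from 198 against 87 to 127 against 154 and 149 against 133. The call of 0 genes depended on single batches. Without batch 1 limma called 186 genes, of which 9 code for protein, without batch 2 it called 5, none of them coding, and without batch 4 it called 0. Without batch 3 it called 42 genes, and the 4 protein-coding genes among them were Atp13a5, Mgp, Rgs5 and Vtn, all higher in GRP2/MP3. In the fits without batch 1 and without batch 3, limma gave no weight to a gene's own spread over the pairs. It used only the spread shared by genes of like level, so these calls do not measure how alike the pairs of a gene were. Weighting the libraries by their fit gave 2394 calls, but these weights put 32.9 on the libraries of batch 3 and 0.182 to 0.564 on the others.

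Genes with at least a 2-fold difference in the same direction in batches 1 and 2 numbered 249 for BNAP/GRP1 (1.54%) and 290 for GRP2/MP3 (1.8%). A larger number had a 2-fold difference in opposite directions in these batches, 2082 genes higher in BNAP/GRP1 in batch 1 and in GRP2/MP3 in batch 2, and 1350 genes the reverse. Batch 4, which had no part in the choice, did not set the chosen genes apart as a whole. Of the 290 genes, 33.1% were higher in GRP2/MP3 there, against 32.4% of all genes, and of the 249 genes, 66.3% were higher in BNAP/GRP1, against 67.1% of all genes. In the form that needs no pairing, both GRP2/MP3 libraries of batches 1 and 2 were above both BNAP/GRP1 libraries for 7.9% of genes, and the reverse held for 9.71%. With batch 4 added, the 3 GRP2/MP3 libraries lay above the 3 BNAP/GRP1 libraries for 97 genes (0.601%), and the reverse held for 327 genes (2.03%). The p-values come from limma's moderated test, which joins each gene's spread among these 4 pairs of pooled litters to the spread of genes of like level. The shared spread counted for more, with 8.11 prior against 3 residual degrees of freedom.

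The clearest difference was in the genes of pericytes, which were higher in GRP2/MP3 in batches 1, 2 and 4. From these same libraries the study had proposed that pericytes with NG2 were likely present in GRP2/MP3, citing Rgs5. The pericyte pattern is therefore no independent evidence for that. Of the 12 pericyte genes, all of them tested, 8 were higher in GRP2/MP3 at an unadjusted p under 0.05, against 0.539% of all genes, and none was higher in BNAP/GRP1. The same 8 genes, Rgs5, Kcnj8, Abcc9, Higd1b, Ndufa4l2, Vtn, Atp13a5 and Mcam, were those with a 2-fold difference in both batch 1 and batch 2. In 11 of 12 both GRP2/MP3 libraries of batches 1 and 2 were above both BNAP/GRP1 libraries (7.9% of all genes), and in 6 this held with batch 4 as well (0.601%). For Kcnj8, Abcc9 and Atp13a5 the filter fixed the order in batches 1 and 2. They reached 1 RPKM only in GRP2/MP3 of batches 1, 2 and 4 and in BNAP/GRP1 of batch 4. Anpep, also counted, was in these 2 batches at 0.05 and 0.04 RPKM in BNAP/GRP1 and 0.19 and 0.15 RPKM in GRP2/MP3. The median difference of the list was -3.22, -3.16, 0.00 and -2.44 in batches 1 to 4, against 0.23, -0.29, 0.00 and 0.90 for all genes tested. It was below 0 under all 16 alternatives, from -3.20 to -0.10, the last with the weighted libraries. In bulk RNA, a smaller number of pericytes and less RNA per pericyte cannot be told apart.

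Rgs5 (chr1:169655501-169695813, GRCm38, as all positions), a regulator of G protein signalling that marks brain pericytes, was measured at 4.15, 8.45, 0.173 and 119 RPKM in BNAP/GRP1 and 120.4, 155, 0.251 and 6493 RPKM in GRP2/MP3 in batches 1 to 4. The GRP2/MP3 library was the higher in every batch, with differences of -4.56, -4.05, -0.09 and -5.76 on the log2 scale, and the populations did not overlap outside batch 3. Rgs5 had a mean log2 difference of -3.61 (SE 0.86), an unadjusted p of 0.00144 and an adjusted p of 1.00. It was the 1 gene with an adjusted p under 0.05 (0.0223) when the spread was taken from all populations with batch 3 left out. The 119 RPKM of BNAP/GRP1 in batch 4 was close to the levels of GRP2/MP3 in batches 1 and 2.

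Vtn (chr11:78499091-78502324) encodes vitronectin, an adhesive matrix protein that pericytes release. It was measured at 1.37, 0.0437, 0.00703 and 22.1 RPKM in BNAP/GRP1 and 68.8, 118, 0.205 and 258 RPKM in GRP2/MP3, higher in GRP2/MP3 in all 4 batches, and the groups did not overlap outside batch 3, where it was near 0 in both. Vtn had a mean log2 difference of -3.86 (SE 0.90), an unadjusted p of 0.00127 and an adjusted p of 1.00. Its adjusted p by limma was 0.00331 without batch 3, in a fit that gave no weight to its own spread over the pairs. The 250 bases that precede the start of these 2 genes in RefSeq (GRCm38.p6) are shown, since they led the difference. Capitals mark the exact letters TGGGAA, the core that the Notch factor RBPJ binds, and TATAAA, a common form of the TATA box, on either strand. Other forms of these sites and their distance from the start of the gene were not searched, so a match or its absence does not show whether a site is in use.

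Rgs5, chr1:169655251-169655500, plus strand: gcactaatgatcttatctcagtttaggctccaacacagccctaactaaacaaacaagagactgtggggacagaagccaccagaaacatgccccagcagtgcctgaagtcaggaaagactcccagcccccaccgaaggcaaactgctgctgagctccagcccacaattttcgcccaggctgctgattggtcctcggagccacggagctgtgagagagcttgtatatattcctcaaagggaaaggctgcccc

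Vtn, chr11:78498870-78499119, plus strand: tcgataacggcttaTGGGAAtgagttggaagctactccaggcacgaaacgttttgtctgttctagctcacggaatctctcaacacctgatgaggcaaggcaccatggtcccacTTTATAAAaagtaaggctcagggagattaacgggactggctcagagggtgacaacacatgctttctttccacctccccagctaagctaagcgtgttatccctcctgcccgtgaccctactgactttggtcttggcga

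The window of Vtn held 1 match to TGGGAA and 2 overlapping matches to TATAAA (one on each strand), and that of Rgs5 held neither. Over all 32851 promoter windows of this length, 21.6% held TGGGAA and 12.4% held TATAAA. Of the 9 pericyte genes with a window, 2 held TGGGAA (Abcc9 and Vtn) and 1 held TATAAA (Vtn).

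The channel that pericytes use to sense energy supply is built of Kcnj8 (Kir6.1) and Abcc9 (SUR2), and both genes followed the same pattern. Kcnj8 (chr6:142564837-142571614) was measured at 0.609, 0, 0 and 10.1 RPKM in BNAP/GRP1 and 12.8, 42.1, 0.382 and 68.9 RPKM in GRP2/MP3, with a mean log2 difference of -2.91 (SE 0.76), an unadjusted p of 0.0027 and an adjusted p of 1.00. Abcc9 was measured at 0.343, 0.765, 0 and 2.94 RPKM in BNAP/GRP1 and 4.23, 38.9, 0 and 17.5 RPKM in GRP2/MP3. GRP2/MP3 was higher for both in batches 1, 2 and 4, and in batch 3 the pair was at or near 0. Higd1b, a mitochondrial protein abundant in pericytes, was at 1.299, 27.1, 0 and 24.01 RPKM in BNAP/GRP1 and 287, 87.3, 0 and 463 RPKM in GRP2/MP3. Its smallest gap outside batch 3 was in batch 2, and its lowest GRP2/MP3 value there was still above every BNAP/GRP1 value.

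Ndufa4l2 (chr10:127514967-127517154), another mitochondrial protein of pericytes, was at 0.435, 0.686, 0 and 12.99 RPKM in BNAP/GRP1 and 18.4, 9.18, 1.12 and 139.6 RPKM in GRP2/MP3. It was higher in GRP2/MP3 in all 4 batches, with differences of -3.76, -2.59, -1.08 and -3.33 on the log2 scale, and had a mean log2 difference of -2.69 (SE 0.62), an unadjusted p of 0.0012 and an adjusted p of 1.00. Atp13a5, a P-type transporter of pericytes, was at 0.114, 0.245, 0 and 8.101 RPKM in BNAP/GRP1 and 13.9, 16.4, 0 and 139 RPKM in GRP2/MP3, with the 3 GRP2/MP3 libraries outside batch 3 all above the 3 BNAP/GRP1 libraries. Mcam, the adhesion molecule CD146, was at 0.444, 1.54, 0.212 and 8.39 against 4.95, 32.6, 0.224 and 28.9 RPKM. Pdgfrb, the receptor for the platelet-derived growth factor that recruits pericytes, was at 0.676, 3.69, 0.225 and 7.31 against 16.1, 6.74, 0.104 and 30.8 RPKM, the higher value lying in GRP2/MP3 in batches 1, 2 and 4. Pdgfrb did not pass an unadjusted p of 0.05, nor did Anpep, Notch3 and Des, with mean log2 differences of 0.04, -0.19 and -0.29.

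**Figure D2:**
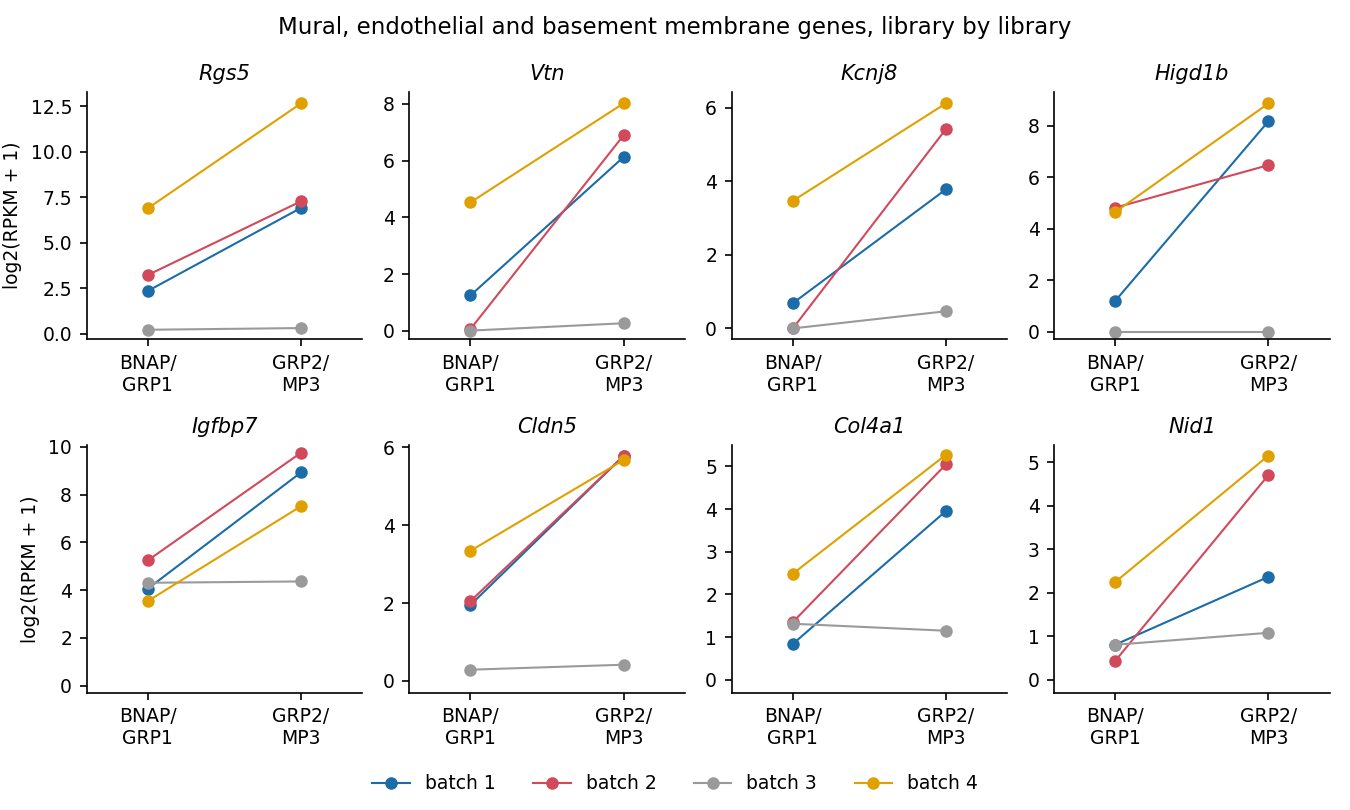
Each panel shows 1 gene in log2(RPKM + 1), with the 4 BNAP/GRP1 libraries on the left and the 4 GRP2/MP3 libraries on the right, joined within a batch (1 blue, 2 red, 3 grey, 4 yellow). The lines of batches 1, 2 and 4 rise towards GRP2/MP3 in all 8 genes, and those of batch 3 change little.

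Endothelial genes were parted in batches 1 and 2 but not in batch 4. Of the 20 endothelial genes tested (of 22), 16 had both GRP2/MP3 libraries above both BNAP/GRP1 libraries in batches 1 and 2, against 7.9% of all genes, and 12 differed at least 2-fold in both batches, against 1.8%. For Tek, Tie1, Cdh5, Emcn and Sox17 the filter fixed the order in batches 1 and 2, as for Kcnj8. The median difference of the list was -2.03, -1.74, -0.04 and 0.75 in batches 1 to 4, so batch 4 went the other way, at a value near the 0.90 of all genes in that batch. Cldn5 (chr16:18776847-18778262), the tight junction protein claudin-5, was at 2.86, 3.14, 0.222 and 9.12 RPKM in BNAP/GRP1 and 53.7, 53.7, 0.335 and 49.8 RPKM in GRP2/MP3. It was higher in GRP2/MP3 in every batch and had a mean log2 difference of -2.50 (SE 0.70), an unadjusted p of 0.00449 and an adjusted p of 1.00. Esam, an endothelial adhesion molecule, was at 1.29, 3.34, 0.257 and 14.96 against 15.2, 30.1, 0.336 and 30.6 RPKM, and the groups did not overlap outside batch 3. Egfl7, a factor that endothelial cells secrete, was at 9.33, 0.04696, 0.0907 and 35.8 against 74.6, 46.1, 0.416 and 28.96 RPKM, where batch 4 did not follow batches 1 and 2. Flt1 and Kdr, the receptors for vascular endothelial growth factor, were at 2.12, 3.12, 0.878 and 14.1 against 14.3, 22.8, 1.203 and 9.603 RPKM and at 1.11, 2.97, 0.442 and 10.03 against 11.7, 29.6, 0.898 and 4.96 RPKM. The higher values were in GRP2/MP3 in batches 1 and 2 and in BNAP/GRP1 in batch 4.

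Genes of the vascular basement membrane, the sheet of matrix between pericytes and endothelium, were higher in GRP2/MP3 in batches 1, 2 and 4. Of 8 genes tested (of 10), 7 had both GRP2/MP3 libraries of batches 1 and 2 above both BNAP/GRP1 libraries, against 7.9% of all genes, and 3 passed an unadjusted p of 0.05, against 0.539% (Col4a1, Col4a2 and Nid1). The median difference was -1.86, -2.93, -0.01 and -1.70 in batches 1 to 4. Col4a1 and Col4a2, the chains of collagen IV, were at 0.791, 1.55, 1.49 and 4.601 against 14.5, 32.04, 1.22 and 37.6 RPKM and at 0.396, 0.766, 1.05 and 4.73 against 6.55, 12.9, 1.01 and 28.4 RPKM. For both genes the 3 GRP2/MP3 libraries outside batch 3 were above the 3 BNAP/GRP1 libraries. Nid1 (chr13:13437551-13512269), the linker nidogen-1, was at 0.748, 0.353, 0.744 and 3.75 against 4.15, 25.2, 1.11 and 34.7 RPKM, with a mean log2 difference of -2.25 (SE 0.71), an unadjusted p of 0.00844 and an adjusted p of 1.00. Sparc, a collagen-binding protein that microglia also express, was the exception in batch 1, at 516, 111, 33.7 and 26.8 against 284, 1012, 34.3 and 735 RPKM.

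Smooth muscle genes also stood higher in GRP2/MP3 in batches 1 and 2, and fibroblast genes mainly in batch 1. Of 5 smooth muscle genes tested (of 10), 4 had both GRP2/MP3 libraries of batches 1 and 2 above both BNAP/GRP1 libraries (Acta2, Tagln, Myl9 and Tpm2), against 7.9% of all genes, and 1 passed an unadjusted p of 0.05, Myl9, the regulatory light chain of myosin, at 3.43, 15.1, 1.04 and 15.6 against 117, 22.1, 1.01 and 143 RPKM. The median differences of the list were -0.99, -0.45, 0.02 and -0.15. Acta2, the actin of contractile mural cells, was at 0.209, 0.8904, 4.72 and 5.29 against 9.33, 1.58, 4.84 and 22.6 RPKM. Of 8 fibroblast genes tested (of 10), 4 had both GRP2/MP3 libraries above both BNAP/GRP1 libraries in batches 1 and 2, against 7.9% of all genes. Of these, Col1a1 was near 0 in batch 2 (0.064 against 0.083 RPKM). None passed an unadjusted p of 0.05. The medians were -0.98, -0.10, 0.01 and 1.27, against 0.23, -0.29, 0.00 and 0.90 for all genes. In batches 1 and 2, 2 differed at least 2-fold, against 1.8% of all genes. They were Col1a2 at 1.07, 2.71, 12.8 and 15.1 against 9.29, 7.86, 11.8 and 20.4 RPKM and Col3a1 at 0.376, 3.33, 13.8 and 15.1 against 3.33, 8.35, 14.8 and 30.4 RPKM.

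Among genes with a mean of at least 5 RPKM, predicted genes and ribosomal pseudogenes left out, an unadjusted p under 0.05 and the same sign in every batch, the 12 with the largest mean difference towards GRP2/MP3 were Vtn, Rgs5, Igfbp7, Kcnj8, Snora31, Ppp1r14a, Ndufa4l2, Rarres2, Cldn5, Pglyrp1, Car4 and Nid1. Igfbp7 (chr5:77349240-77408041), a secreted binding protein of insulin-like growth factors that vascular cells deposit in the matrix, was at 15.7, 36.97, 18.8 and 10.6 RPKM in BNAP/GRP1 and 488, 865, 19.6 and 182 RPKM in GRP2/MP3. GRP2/MP3 was far higher in batches 1, 2 and 4, and the values of batch 3 were alike. Igfbp7 had a mean log2 difference of -3.35 (SE 0.84), an unadjusted p of 0.00213 and an adjusted p of 1.00. Ppp1r14a (chr7:29289308-29293801), an inhibitor of myosin phosphatase in contractile cells, was at 0.471, 0.173, 0 and 7.96 RPKM in BNAP/GRP1 and 38.01, 12.3, 0.431 and 44.8 RPKM in GRP2/MP3. It had a mean log2 difference of -2.77 (SE 0.72), an unadjusted p of 0.00255 and an adjusted p of 1.00. Rarres2 (chr6:48569696-48572789), which encodes the chemoattractant chemerin, was at 0.772, 1.13, 1.29 and 12.2 RPKM in BNAP/GRP1 and 17.8, 4.06, 2.47 and 436 RPKM in GRP2/MP3. The range of GRP2/MP3 was wide, and its batch 2 value was below the batch 4 value of BNAP/GRP1.

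Pglyrp1 (chr7:18871331-18890459), a peptidoglycan recognition protein, was at 1.23, 1.58, 70.03 and 9.08 RPKM in BNAP/GRP1 and 47.4, 13.7, 71.2 and 62.7 RPKM in GRP2/MP3, and Car4 (chr11:84957786-84966044), a carbonic anhydrase anchored on capillary endothelium, was at 0.6295, 0.159, 39.8 and 23.2 RPKM in BNAP/GRP1 and 13.5, 11.01, 46.4 and 127 RPKM in GRP2/MP3. Both were high in the libraries of batch 3 too, at like levels in the pair. Snora31 (chr14:75847905-75848034), a small nucleolar RNA, was at 73.3, 33.5, 44.9 and 0 RPKM in BNAP/GRP1 and 116, 119, 114 and 209.7 RPKM in GRP2/MP3. It was the 1 gene of the 12 with a difference over 1 in batch 3 other than Ndufa4l2. Snora31 is far shorter than 1 kb, so the 0 in the shallow BNAP/GRP1 library of batch 4 can stand for few missed reads. That batch gave a difference of -7.72, against -0.65, -1.80 and -1.33 in batches 1 to 3.

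The 8 genes with the largest smaller difference of batches 1 and 2 towards GRP2/MP3 were Vtn, Plac8, Igfbp7, Ear2, Mgp, Rgs5, Fam162b and Atp13a5, a description since these batches chose them. Mgp (chr6:136872435-136875823), the matrix Gla protein that inhibits calcification of vessels, was at 0.5704, 0.1399, 6.12 and 1.61 RPKM in BNAP/GRP1 and 75.9, 18.7, 4.33 and 13.3 RPKM in GRP2/MP3, and batch 4 followed batches 1 and 2. Fam162b (chr10:51585416-51590517) was at 0.155, 0, 0 and 4.72 RPKM in BNAP/GRP1 and 15.7, 13.4, 0 and 6.88 RPKM in GRP2/MP3, with a small gap in batch 4. Plac8 (chr5:100553725-100572245) was at 4.26, 1.15, 384 and 45.5 RPKM in BNAP/GRP1 and 138, 89.04, 406 and 7.46 RPKM in GRP2/MP3, and Ear2 (chr14:44102654-44103534), a ribonuclease of myeloid cells, at 0.0941, 0, 348 and 25.9 RPKM in BNAP/GRP1 and 51.8, 17.9, 398 and 4.44 RPKM in GRP2/MP3. For both of these batch 4 had the opposite direction, and both were more abundant in the libraries of batch 3 than in any other.

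The genes behind the sorting antigens were at or below 35.5 RPKM in every library and did not part the populations across the batches. Fut9 and Fut4, the fucosyltransferases that complete CD15, were at 2.33, 1.17, 0.0581 and 8.12 against 0.418, 1.76, 0.00361 and 4.22 RPKM and at 1.78, 0.0143, 1.14 and 7.04 against 0.3702, 4.96, 0.674 and 2.32 RPKM. Fut9 was higher in BNAP/GRP1, the CD15+ population, in batches 1, 3 and 4 and lower in batch 2, and its groups overlapped (mean log2 difference 0.44, SE 0.58). The 8.12 and 7.04 RPKM in BNAP/GRP1 of batch 4 rest on an unknown number of reads. In that library 1 read gives 8.15 RPKM on a gene of 1 kb, and less on a longer gene such as Fut4 (chr9:14748320-14752393). Cspg4, which encodes NG2, the antigen both populations were sorted for, was at 0.844, 0.249, 0.0362 and 8.49 against 5.91, 9.64, 0.0431 and 7.89 RPKM, higher in GRP2/MP3 in batches 1 and 2 (differences of -1.90 and -3.09) and close to 0 in both libraries of batch 3. Prom1 (CD133) was at 6.13, 9.19, 0.662 and 35.5 against 5.75, 14.1, 1.36 and 11.2 RPKM and Pdgfra (CD140a) at 3.59, 3.47, 2.26 and 24.1 against 1.803, 5.23, 2.18 and 7.49 RPKM, although neither population was sorted for these antigens. Of the 5 genes none passed an unadjusted p of 0.05. Nor did any of the 19 genes tested (of 20) for the synthesis of LeX, the supply of fucose and its removal, whose median differences were 0.85, -0.72, 0.05 and 1.04.

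By the same rule, with predicted genes and ribosomal pseudogenes left out, 10 genes were higher in BNAP/GRP1, and 5 of the 10 were not protein-coding. Igkv4-56 (chr6:69587295-69587810), annotated as a pseudogene of the immunoglobulin kappa variable family, was at 2.01, 149.989, 5.22 and 5.64 RPKM in BNAP/GRP1 and 0.319, 0.477, 0 and 0.816 RPKM in GRP2/MP3. BNAP/GRP1 was above GRP2/MP3 in every batch, and 1 library, that of batch 2, held most of its signal. It had a mean log2 difference of 3.09 (SE 0.84), an unadjusted p of 0.00359 and an adjusted p of 1.00. Near-identical members of this family share reads, so its level is uncertain. Igkc, the kappa constant region, was lower in BNAP/GRP1 in batches 1 and 2 (0, 0, 1518 and 34.7 against 5.83, 4.35, 1571 and 1.35 RPKM). The study named Igkv4-56 for BNAP/GRP1 on these same libraries, so its direction is not independent of that choice.

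The protein-coding genes of this group were Pbx4, Thbs3, Mpped1, Oscp1 and Brinp1. Pbx4 (chr8:69832491-69872292), a homeodomain cofactor, was at 6.803, 14.2, 1.302 and 22.1 RPKM in BNAP/GRP1 and 2.69, 3.63, 0 and 4.28 RPKM in GRP2/MP3, with a mean log2 difference of 1.53 (SE 0.56), an unadjusted p of 0.0191 and an adjusted p of 1.00. Thbs3 (chr3:89215180-89226837), the matrix protein thrombospondin-3, was at 7.29, 15.4, 5.42 and 59.4 RPKM in BNAP/GRP1 and 3.02, 5.38, 3.42 and 5.85 RPKM in GRP2/MP3. Mpped1 (chr15:83779467-83858494), a phosphoesterase of fetal brain, was at 7.7, 9.54, 0.958 and 13.9 RPKM in BNAP/GRP1 and 0.495, 3.92, 0.185 and 5.08 RPKM in GRP2/MP3. For these 3 genes the BNAP/GRP1 libraries outside batch 3 were all above the GRP2/MP3 libraries. Oscp1 (chr4:126058565-126092195) was at 6.21, 20.6, 0.407 and 36.3 RPKM in BNAP/GRP1 and 2.69, 2.45, 0 and 13.04 RPKM in GRP2/MP3 and Brinp1 (chr4:68761514-68954397), a protein of postmitotic neurons that restrains the cell cycle, at 7.92, 17.02, 0.298 and 24.6 RPKM in BNAP/GRP1 and 1.34, 2.17, 0 and 15.1 RPKM in GRP2/MP3, both with overlapping groups.

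The other genes of the group were the mitochondrial transfer RNA mt-Tm, at 3.85, 16.99, 8.21 and 293 against 0, 0, 0 and 79.9 RPKM, the processed pseudogenes ENSMUSG00000105995, at 1.47, 19.5, 5.23 and 74.6 against 0, 0, 0 and 5.09 RPKM, and RP23-187K3.1, at 2.05, 9.06, 140.048 and 51.97 against 0, 0, 29.2 and 9.27 RPKM, and the antisense transcript RP23-447A7.2, at 0.476, 10.5, 3.16 and 19.1 against 0, 0.1698, 0.04997 and 6.86 RPKM. The genes mt-Tm (chrM:3845-3913) and ENSMUSG00000105995 (chr3:96086871-96087056) are far shorter than 1 kb. On them 1 read gives far more RPKM than on a gene of 1 kb, so their values can stand for a few reads. This also applies to the short RNAs listed next. Pseudogenes can take reads from their parent genes, and reads of an antisense transcript cannot be told from those of its partner unless strand was counted, which is not given in the sources used here. Among the 8 genes with the largest smaller difference of batches 1 and 2 towards BNAP/GRP1, 6 were not protein-coding: mt-Tm again, Mir3470b at 13.04, 161, 0 and 66.1 against 0, 11.2, 0 and 0 RPKM, AC099934.1 at 10.9, 80.9, 0 and 1908 against 0, 0, 151 and 0 RPKM, Snora33 at 10.2, 78.7, 0 and 0 against 0, 0, 99.5 and 35.2 RPKM, RP24-190F20.4 at 3.63, 120.2, 0 and 107 against 0, 0, 0 and 8.37 RPKM and ENSMUSG00000105464 at 3.37, 7.43, 0 and 128 against 0, 0, 0 and 11.6 RPKM. The other two were Stmn3 and Slc1a3.

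Astroglial genes stood higher in BNAP/GRP1 in batches 1 and 2, and batch 4 reversed most of them. Of the 25 genes tested (of 28) of neural stem cells, radial glia and astrocytes, 17 had both BNAP/GRP1 libraries of batches 1 and 2 above both GRP2/MP3 libraries, against 9.71% of all genes, and 11 differed at least 2-fold in both batches, against 1.54%. The list's median difference was 2.02, 1.01, 0.22 and -1.76 in batches 1 to 4. None of its genes passed an unadjusted p of 0.05. Slc1a3, the glutamate transporter GLAST, was at 64.2, 171, 1.58 and 25.9 RPKM in BNAP/GRP1 and 13.9, 35.4, 0.211 and 170.006 RPKM in GRP2/MP3. BNAP/GRP1 was higher in batches 1, 2 and 3, and GRP2/MP3 was higher in batch 4, where its value was close to the highest of BNAP/GRP1. Fabp7, the fatty acid binding protein of radial glia, was at 3102, 4424, 197 and 327 RPKM in BNAP/GRP1 and 301, 1918, 140.4 and 5466 RPKM in GRP2/MP3. Aldoc, an aldolase of astrocytes, was at 55.8, 44.5, 12.4 and 37.9 against 7.21, 16.03, 8.79 and 1189 RPKM, and Mt3, a metallothionein of astrocytes, at 46.8, 136, 2.64 and 5.82 against 17.4, 10.5, 0.561 and 156 RPKM.

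Hes5, the Notch effector that keeps progenitors undifferentiated, was at 35.4, 105, 0.594 and 13 against 8.72, 19.1, 0.859 and 9.88 RPKM, and Sox9, a factor of neural stem cells and glia, at 14.7, 53.2, 0.286 and 13.7 against 4.26, 12.03, 0.343 and 38.7 RPKM. Hes5 was the gene of these that batch 4 did not reverse. Sox2 differed between the batches, at 75.7, 18.3, 0.468 and 13.3 against 3.97, 73.1, 0.678 and 23.8 RPKM, with BNAP/GRP1 of batch 1 and GRP2/MP3 of batch 2 alike. The same crossed pattern held for Id4, a repressor of differentiation, at 41.1, 35.2, 0.506 and 13.1 against 2.64, 39.8, 0.21 and 23.7 RPKM. Stmn3, a neuronal stathmin that regulates microtubules, was at 105, 150.1, 3.21 and 7.57 against 22, 28.7, 0.744 and 82.5 RPKM, also reversed in batch 4.

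Genes of the oligodendrocyte lineage showed the same order in batches 1 and 2. Of 18 genes of oligodendrocyte progenitors, all tested, 9 had both BNAP/GRP1 libraries above both GRP2/MP3 libraries in batches 1 and 2, against 9.71% of all genes. The 4 genes at least 2-fold higher in both, against 1.54% of all genes, were Sox10, Cspg5, Bcan and Nkx2-2, and Cspg4 went the other way. The median difference was 1.12, 0.93, 0.03 and 0.03. Cspg5, a neural proteoglycan, was at 43.5, 66.6, 1.74 and 66.96 against 12.2, 29.9, 0.645 and 52.98 RPKM, higher in BNAP/GRP1 in every batch, and Bcan, the brevican of the extracellular matrix, at 21.9, 45.1, 0.856 and 14.99 against 6.79, 7.93, 0.135 and 37.2 RPKM, higher in BNAP/GRP1 in batches 1 to 3. Ptprz1, a receptor phosphatase of progenitors, was at 64.8, 34.6, 0.5098 and 27.8 against 3.39, 56.5, 0.114 and 61.7 RPKM, and Olig1, a factor of the lineage, at 33.6, 24.1, 0.926 and 25.3 against 6.63, 20.03, 0.211 and 64.2 RPKM. Myelin genes were not parted in a common direction (0.87, -0.57, 0.04 and -1.30).

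Of the 7 proneural and neuronal transcription factors tested (of 18), 2 were higher in BNAP/GRP1 at an unadjusted p under 0.05, Neurod2 and Tbr1, against 1.23% of all genes. The median difference of the 7 was 1.42, 0.82, 0.11 and 1.31 in batches 1 to 4, positive in each, and positive under all 16 alternatives, from 0.16 to 1.60. The members were mixed, and 3 of the 7 were higher in GRP2/MP3 in batch 2. Without pairing, 3 had both BNAP/GRP1 libraries of batches 1 and 2 above both GRP2/MP3 libraries, against 9.71% of all genes. Insm1 was crossed, at 47.5, 22.8, 0.275 and 13.3 RPKM in BNAP/GRP1 and 3.74, 112, 0.416 and 4.79 RPKM in GRP2/MP3. Tbr1, a factor of glutamatergic neurons, was at 4.67, 9.13, 0.0796 and 14.6 RPKM in BNAP/GRP1 and 1.11, 3.06, 0 and 1.55 RPKM in GRP2/MP3, and the groups did not overlap outside batch 3. Neurod2, which acts in the same lineage, was at 2.02, 15.3, 0.783 and 12.9 RPKM in BNAP/GRP1 and 1.38, 0.931, 0 and 2.52 RPKM in GRP2/MP3. Pax6, a factor of radial glia and olfactory bulb interneurons, was at 25.8, 51.6, 1.36 and 68.4 RPKM in BNAP/GRP1 and 6.16, 28.9, 0.211 and 27.6 RPKM in GRP2/MP3, with BNAP/GRP1 higher in every batch. The median difference of all genes in batch 4, 0.90, stands beside these values. The 21 neuroblast genes, all tested, had medians of 2.12, -0.39, -0.02 and -0.90. Sp8, a factor of olfactory interneurons, was at 7.74, 17.3, 0.0222 and 22.3 against 1.8, 6.75, 0.0382 and 408 RPKM, Stmn2, a neuronal growth-associated protein, at 92.3, 147, 5.47 and 33.1 against 20.5, 59.1, 1.33 and 274 RPKM and Sox11, a factor of immature neurons, at 70.8, 68.8, 0.819 and 14.4 against 10.3, 127, 1.196 and 100.5 RPKM. Of 6 genes of mature neurons tested (of 10), 4 had both BNAP/GRP1 libraries above in batches 1 and 2, against 9.71% of all genes (medians 1.06, 0.94, 0.12 and 0.02), Snap25, a synaptic vesicle fusion protein, standing at 20.03, 40.2, 0.191 and 21.2 against 8.69, 11.1, 0.199 and 21.3 RPKM.

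**Figure D3:**
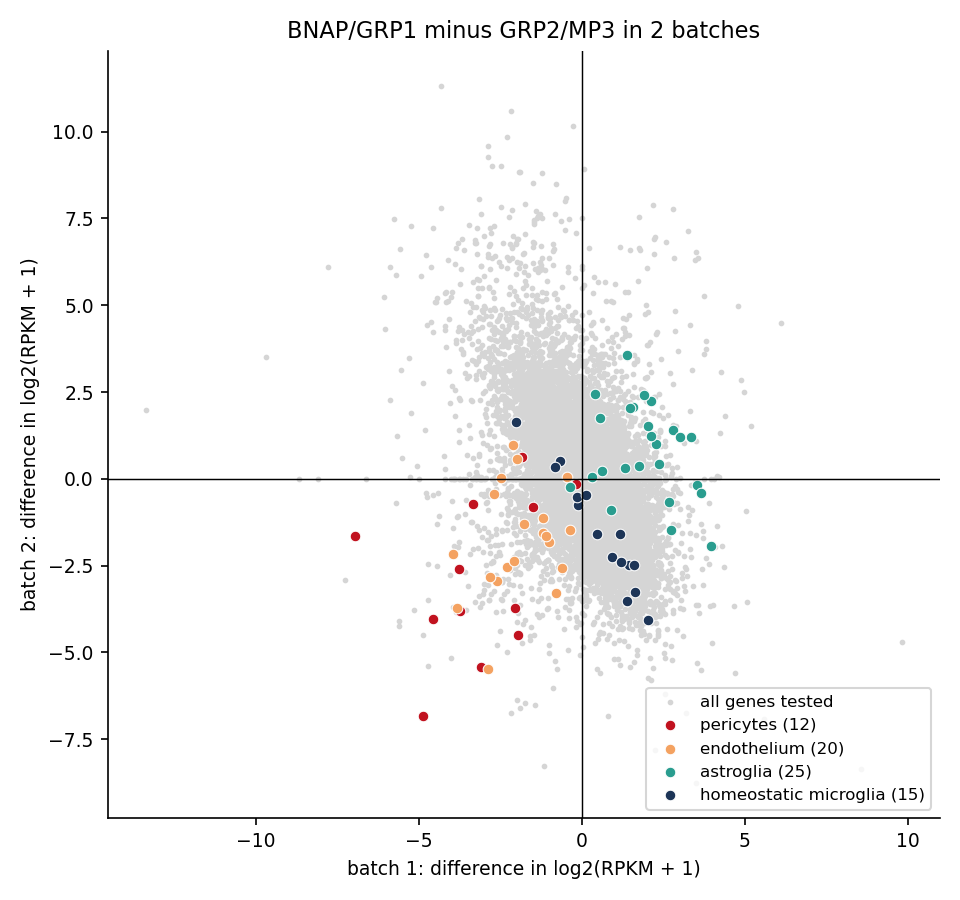
Each point is 1 gene, placed by its difference in log2(RPKM + 1), BNAP/GRP1 minus GRP2/MP3, in batch 1 (horizontal) and batch 2 (vertical). Grey points are the 16143 genes tested, which fall mostly in the quadrants of opposite sign, while pericyte and endothelial genes lie at the lower left (higher in GRP2/MP3 in both), many astroglial genes at the upper right, and most homeostatic microglial genes at the lower right.

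Both populations held RNA of microglia in batches 1 and 2, and it did not part them in a common direction. In BNAP/GRP1 of batch 4 the microglial genes were no higher than genes of unrelated cell types, so microglial RNA is not shown for that library. Of 15 homeostatic microglial genes, all tested, none passed an unadjusted p of 0.05, and none had both BNAP/GRP1 libraries of batches 1 and 2 above both GRP2/MP3 libraries, while 1 had the reverse, against 7.9% of all genes. The summed level of the list was 3729, 1009, 599.7 and 145 RPKM in BNAP/GRP1 and 2744, 3358, 554 and 719.7 RPKM in GRP2/MP3, so the ranges overlapped. Its median difference was 0.92, -1.60, 0.01 and -0.92 in batches 1 to 4. P2ry12, the ADP receptor of homeostatic microglia, was at 368, 64.7, 1.49 and 11.5 RPKM in BNAP/GRP1 and 90.1, 1101, 1.22 and 60.7 RPKM in GRP2/MP3. The highest and the lowest of its values outside batch 3 were in GRP2/MP3 of batch 2 and BNAP/GRP1 of batch 4.

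Cx3cr1, the fractalkine receptor, was at 231, 39.2, 0.478 and 10.7 against 101, 121, 0.931 and 19.8 RPKM, and Fcrls, a scavenger receptor of microglia, at 517, 78.6, 1.21 and 6.03 against 222, 416, 2.04 and 19.3 RPKM. Csf1r, the receptor that microglia need for survival, was at 127, 55.3, 90.6 and 5.23 against 138, 93.8, 89.3 and 16.6 RPKM, and Siglech, a lectin of microglia, at 39.7, 37.6, 0.762 and 14.8 against 44.3, 54.6, 0.817 and 13.5 RPKM, each with differences under 1 in batches 1 to 3. Gpr34, a lysophospholipid receptor that the study named for both populations, was at 149.6, 7.25, 0.868 and 4.91 against 56.6, 94.4, 0.355 and 78.4 RPKM. As for P2ry12, the level in BNAP/GRP1 was higher in batch 1 than in batch 2, and that in GRP2/MP3 was higher in batch 2 than in batch 1.

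Genes that myeloid cells share gave the same result. Of 20 such genes, all tested, none passed an unadjusted p of 0.05, and their median differences were 0.23, -1.06, 0.01 and -1.09. Tyrobp and Fcer1g, signalling adaptors of myeloid receptors, were at 2189, 1399, 1436 and 16.02 against 6797, 881, 1464 and 64.7 RPKM and at 2464, 2285, 1043 and 25.4 against 6018, 738, 1040.1 and 303 RPKM. For both, GRP2/MP3 was the higher in batch 1 and BNAP/GRP1 in batch 2, the opposite order to Ctss, the protease cathepsin S, at 6393, 695, 3341 and 7.08 against 2100.0, 9495, 3208 and 83.1 RPKM. Genes of microglia therefore differed in sign within a batch. Of 16 genes of the phagocytic microglia of early postnatal white matter, none passed, with medians of 0.71, -1.96, 0.03 and -1.70. Spp1, osteopontin, was at 16256, 245, 1058 and 15.3 against 2925, 3302, 1001 and 130.2 RPKM, Apoe, the lipid carrier, at 6953, 1745, 7236 and 69.4 against 10929.8, 2431, 6925 and 2037 RPKM and Ctsd, the protease cathepsin D, at 2291, 250.2, 5308 and 11.6 against 1239, 1081, 5179 and 74 RPKM.

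**Figure D4:**
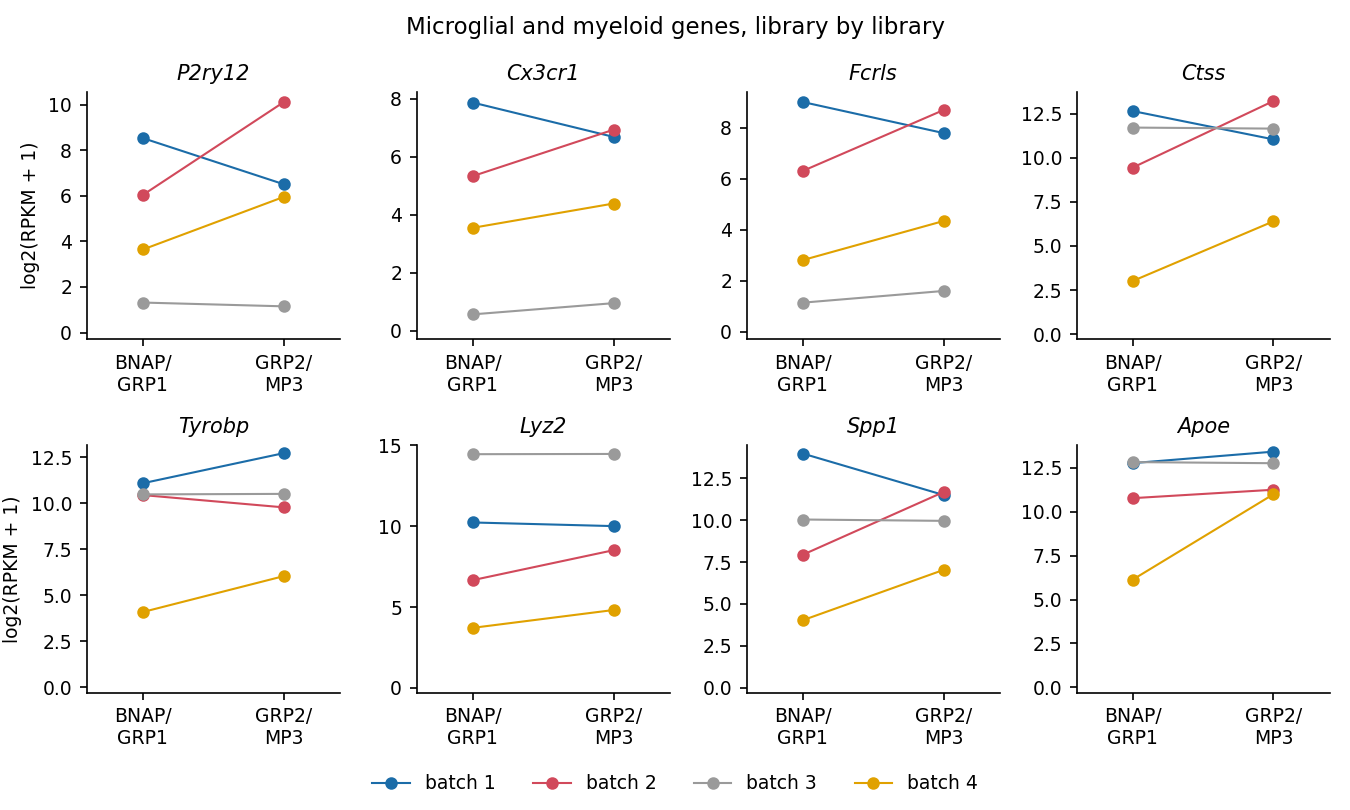
Each panel shows 1 gene in log2(RPKM + 1), with BNAP/GRP1 on the left and GRP2/MP3 on the right, joined within a batch (1 blue, 2 red, 3 grey, 4 yellow). For P2ry12, Cx3cr1, Fcrls, Ctss and Spp1 batch 1 falls towards GRP2/MP3 and batch 2 rises, while batch 3 changes little and batch 4 lies low and rises.

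Genes of the macrophages of the brain's borders were lower in BNAP/GRP1 in batches 1 and 2 but not in batch 4. Of 8 border macrophage genes tested (of 9), 7 were lower in BNAP/GRP1 in both batches 1 and 2, against 13.6% of all genes, 2 of them at least 2-fold (Lyve1 and Cbr2), and 3 had both GRP2/MP3 libraries above both BNAP/GRP1 libraries (Mrc1, Lyve1 and Cbr2), against 7.9%, and Cbr2 was the 1 gene that passed an unadjusted p of 0.05 (3.58, 1.19, 31.95 and 3.85 against 35.9, 4.91, 28.6 and 12.8 RPKM). For Lyve1 the filter fixed the order in batches 1 and 2, as for Kcnj8. The medians of the list were -2.69, -0.90, 0.02 and 0.34. Pf4, a chemokine of these macrophages and of platelets, was at 85.8, 55.7, 1797 and 28.5 against 2365, 73.8, 1837 and 109.8 RPKM, Mrc1, the mannose receptor CD206, at 28.7, 4.53, 22.03 and 6.67 against 33.4, 50.9, 24.4 and 4.64 RPKM and Stab1, a scavenger receptor, at 701, 111, 246 and 156 against 1194, 429, 236 and 79.4 RPKM. Of 18 inflammatory genes, none passed an unadjusted p of 0.05 and none was higher in BNAP/GRP1 in both batches 1 and 2, against 14.8% of all genes. Without pairing, 1 (Cd83) had both GRP2/MP3 libraries above both BNAP/GRP1 libraries and none had the reverse. The list had medians of -1.16, -0.45, -0.05 and -0.54. Ccl4 and Ccl3, chemokines of activated microglia, were at 338, 4170.3, 4398 and 10.2 against 927, 1503, 4499.8 and 77.7 RPKM and at 573, 1409, 5456 and 15.2 against 707, 852, 5656 and 228 RPKM, Cxcl2 at 8.05, 606, 6001 and 14.1 against 189.7, 812, 6201 and 17.2 RPKM and Cxcl1 at 1.15, 35.7, 5065 and 14.1 against 16.03, 50.5, 5287 and 25.4 RPKM. Ccl4 and Ccl3 were higher in GRP2/MP3 in batch 1 and in BNAP/GRP1 in batch 2, and the batch 3 libraries held the most of all these genes. Tnf, the cytokine, was at 27.1, 146, 1247 and 10.7 against 35.8, 426, 1235 and 7.14 RPKM.

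Of 12 interferon-induced genes tested (of 13), Ifitm3, a restriction factor that endothelium and pericytes also express, was the 1 gene that passed an unadjusted p of 0.05, at 17.7, 16.2, 323 and 18.3 against 167, 47.1, 356 and 277 RPKM. It was higher in GRP2/MP3 in every batch, and the groups did not overlap outside batch 3. The medians of the list were -0.94, 0.07, -0.01 and 1.72. Bst2, tetherin, was at 119.8, 94.4, 116 and 5.44 against 374, 59.9, 120.4 and 9.65 RPKM, Ifi27l2a at 30.8, 55.1, 128 and 9.18 against 427, 10.2, 181 and 1.07 RPKM and Isg15, the ubiquitin-like modifier, at 2.57, 5.196, 63.3 and 20.4 against 11.9, 1.49, 57.4 and 3.995 RPKM. These 3 genes were higher in GRP2/MP3 in batch 1 and in BNAP/GRP1 in batch 2. Of 18 immediate early and heat shock genes tested (of 19), which rise when tissue is dissociated, none passed, with medians of 0.19, -1.96, 0.00 and -0.60. Fos and Egr1 were at 334, 107, 18.8 and 22.3 against 109, 1635, 16.1 and 139 RPKM and at 351, 209, 5.71 and 14.2 against 131, 1594, 6.86 and 41.99 RPKM, with GRP2/MP3 of batch 2 the highest library for both, and Ier3 at 224, 514, 665 and 8.88 against 639, 332, 703 and 15.5 RPKM and Zfp36 at 217, 47.96, 115 and 5.44 against 68.7, 859, 111 and 22.1 RPKM.

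Genes of DNA replication and mitosis followed the crossed pattern of batches 1 and 2, with medians of 1.32, -1.19, -0.02 and -0.53 over 28 genes, none past an unadjusted p of 0.05. Pcna, the replication clamp, was at 846, 198, 248 and 17.3 against 155, 1443, 252 and 121 RPKM, Hmgb2 at 133, 64.7, 20.9 and 15.8 against 28.5, 445, 21.4 and 44.4 RPKM, Ube2c at 173, 149.6, 13.3 and 24.3 against 72.3, 114, 7.94 and 27.3 RPKM and Birc5, survivin, at 115, 72.5, 2.26 and 25.2 against 74.3, 128, 3.09 and 38.9 RPKM. All but Ube2c were highest in GRP2/MP3 of batch 2 outside batch 3. Of 15 Notch pathway genes tested (of 17), none passed, with medians of -0.08, -0.32, -0.06 and 0.52. Hes1 was at 18.7, 59.4, 12.6 and 13.2 against 29.96, 72.7, 10.1 and 141 RPKM and Rbpj, the nuclear effector of Notch, at 32.5, 6.52, 19.7 and 22.4 against 13.02, 63.8, 18.99 and 4.97 RPKM. Of 5 oncofetal genes, medians were 0.23, -0.46, 0.03 and 2.11, with Hmga1 at 51.2, 6.84, 70.6 and 13.3 against 12.2, 68.1, 58.8 and 2.93 RPKM. Medians were 1.11, -0.71, 0.07 and 1.23 over 9 genes of transit amplifying cells, -1.40, 1.69, -0.28 and -0.71 over 5 of ependyma, -0.82, 1.58, 0.03 and 2.28 over 3 Hox genes and -0.91, 0.92, 0.00 and 0.84 over 4 of choroid plexus. In none of these 4 lists did a gene pass an unadjusted p of 0.05.

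**Figure D5:**
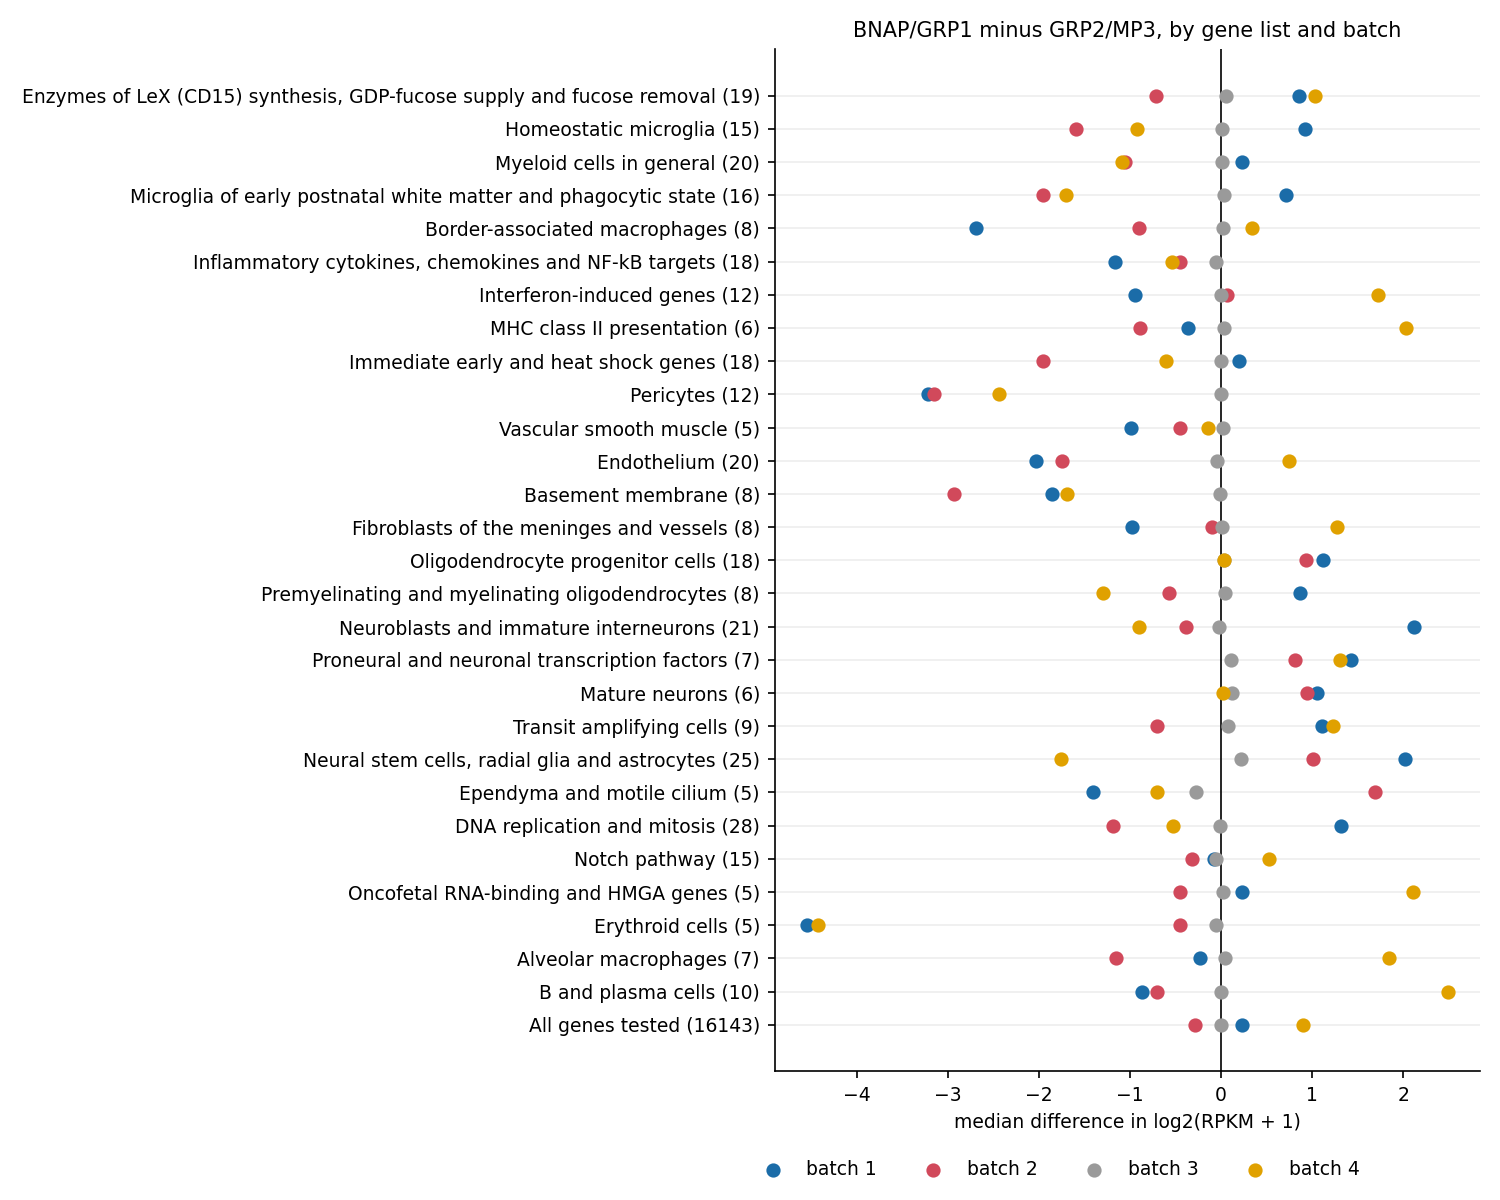
Median difference in log2(RPKM + 1), BNAP/GRP1 minus GRP2/MP3, of each gene list with 5 or more genes tested in batch 1 (blue), 2 (red), 3 (grey) and 4 (yellow), with the number of genes tested in parentheses and all genes tested in the lowest row. Pericyte and basement membrane genes lie left of 0 in batches 1, 2 and 4, microglial lists lie on both sides, and batch 3 lies near 0 throughout.

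Red cell RNA moved with the populations in batches 1 and 4. The summed level of the 8 erythroid genes was 862, 3719.6, 236859 and 118 RPKM in BNAP/GRP1 and 26515, 4569.6, 252653 and 2755 RPKM in GRP2/MP3. GRP2/MP3 was the higher in every batch, by little in batches 2 and 3, and the medians over the 5 genes tested were -4.55, -0.45, -0.06 and -4.42. Hbb-bs and Hba-a2, chains of adult haemoglobin, were at 269, 1078, 98873 and 19.5 against 6345, 1478, 103020.0 and 438 RPKM and at 267, 1560.5, 66045 and 24.6 against 12157, 1025, 77175 and 753 RPKM. The pericyte medians in batches 1 to 4 were -3.22, -3.16, 0.00 and -2.44. The part of blood in the difference of the vascular genes was not tested.

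Batch 3 stood apart in what both of its libraries held. Several homeostatic microglial genes were near 0 in it, with P2ry12 at 1.49 and 1.22 RPKM and Crybb1, a crystallin of neonatal microglia, at 0 in both, although Csf1r was not (its values are given above). Lyz2, the lysozyme of macrophages and granulocytes, stood at 22453 and 22692 RPKM, against 1199.9 RPKM or less in the other libraries. The summed erythroid level was 236859 and 252653 RPKM. MHC class II genes summed to 5402 and 5364 RPKM, against 19.0 to 63.6 RPKM elsewhere, led by Cd74, the invariant chain, at 2278 and 2240.4 RPKM. Scgb1a1, the secretoglobin of airway club cells, was at 965 and 944 RPKM, Chil3 and Ear2, genes of alveolar macrophages, at 621 and 617 and at 348 and 398 RPKM, and Igkc, the kappa constant chain of B cells, at 1518 and 1571 RPKM.

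The summed levels of the T and NK cell list and of the neutrophil list were also highest there. Il7r was at 62.3 and 60.3 RPKM and S100a8 at 103 and 99.05 RPKM. Not every marker followed. The T cell gene Cd3e was at 2.16 and 2.79 RPKM, against 17.8 and 11.1 RPKM in BNAP/GRP1 of batches 2 and 4. The neutrophil gene Retnlg was at 2.56 and 1.05 RPKM, against 8.44 RPKM in GRP2/MP3 of batch 2 and 8.59 RPKM in BNAP/GRP1 of batch 4. Neural markers were low in batch 3, with Fabp7 at 197 and 140.4 RPKM and Sox2 at 0.468 and 0.678 RPKM. So were the pericyte genes apart from Anpep, which myeloid cells share (128 and 123 RPKM). Within the pair the medians over all lists lay between -0.28 and 0.22. The genes that still differed between them included Igkv4-56 (5.22 against 0 RPKM), RP23-187K3.1 (140.048 against 29.2 RPKM) and Snora31 (44.9 against 114 RPKM). Without batch 3 the pericyte median was -3.06.

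Genes of these other cell types did not part the populations in a common direction outside batch 3. Their medians in batches 1 to 4 were -0.37, -0.89, 0.03 and 2.03 for MHC class II, -0.93, -0.26, -0.26 and 2.83 for lung epithelium, -0.23, -1.15, 0.04 and 1.84 for alveolar macrophages, -0.87, -0.70, 0.00 and 2.49 for B and plasma cells, -0.56, 1.45, -0.21 and 2.56 for T and NK cells and -1.38, -1.96, 0.12 and 3.04 for neutrophils. Batch 4 was positive in all of these lists, with BNAP/GRP1 of batch 4 the shallow library. In batches 1 and 2 the light chain genes Igkc, Iglc1 and Iglc2 and the neutrophil genes S100a8 and S100a9 were at least 2-fold higher in GRP2/MP3, S100a8 at 3.76, 0.614, 103 and 21.1 against 19.4, 12.5, 99.05 and 1.28 RPKM. Car4, described above, is also a marker of alveolar macrophages and was the 1 gene of these lists past an unadjusted p of 0.05.

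BNAP/GRP1 of batch 4 stood apart by its depth and by its flat profile. Its median over all genes was 8.30 RPKM, against 0 to 0.977 RPKM in the other libraries. The number of genes above 0, 38191, was close to the 38168 of GRP2/MP3 of batch 4. Marker genes of unrelated cell types lay in a narrow band, with Ctss at 7.08, Lyz2 at 12.1, Scgb1a1 at 13.6, Igkc at 34.7, Kcnj8 at 10.1 and Cd74 at 14.2 RPKM. The summed microglial level of 145 RPKM was the lowest of the 8 libraries, while the pericyte sum of 240.011 RPKM was the highest of the 4 BNAP/GRP1 libraries. Rgs5, at 119 RPKM, was its largest member. Its partner, GRP2/MP3 of batch 4, held the highest pericyte sum, 7656 RPKM, with Rgs5 at 6493 RPKM. Without batch 4, the pericyte median over the other 3 batches was -2.32, and without BNAP/GRP1 of batch 4 in the fit over all populations it was -2.80. The same medians for the astroglial list were 1.07 and 0.95.

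Genes that the study named for these populations, each against neural stem cells, were chosen on the same libraries and are no independent evidence here. The genes named for each population include some named as lower than in neural stem cells: Sox21 and Tsc22d1 for BNAP/GRP1, and Nr2e1, Barx2, Msx1 and Smad9 for GRP2/MP3. Of the 6 genes tested of the 10 named for BNAP/GRP1 in either direction, Igkv4-56 was the 1 gene that passed an unadjusted p of 0.05. Cryba4, a crystallin, was at 116, 118, 2.68 and 3.798 against 223, 104, 0.418 and 7.26 RPKM, Sox21, a repressor that promotes neurogenesis, at 16.5, 6.83, 0.0994 and 13.6 against 1.56, 46.7, 0.345 and 7.03 RPKM and Tsc22d1 at 83, 55.4, 19.5 and 67.2 against 65.9, 186, 20.6 and 88.8 RPKM. Zfp57, Hoxc6, Lhx1 and Neurod1 did not reach 1 RPKM in 4 of the 8 libraries and were not tested. Of the 12 genes tested of the 16 named for GRP2/MP3 in either direction, 2 were higher in GRP2/MP3 at an unadjusted p under 0.05, Higd1b and Rgs5, both pericyte genes. In 7 of the 12, against 7.9% of all genes, both GRP2/MP3 libraries of batches 1 and 2 were above both BNAP/GRP1 libraries. For Tbx2 and Heyl among them the filter fixed this order, as for Kcnj8. In 6 of the 12, Higd1b and Rgs5 included, GRP2/MP3 was at least 2-fold higher in batches 1 and 2, against 1.8% of all genes. A 2-fold difference in batches 1 and 2 was also seen for Gm29291 (10.6, 0.486, 0.0196 and 9.07 against 23.8, 3.18, 0.773 and 10.6 RPKM), Tbx2 (0.1405, 0.245, 0.00696 and 10.6 against 3.17, 5.41, 0 and 4.69 RPKM), Lyl1 (5.98, 1.51, 27.3 and 7.93 against 17.7, 6.001, 26.5 and 7.75 RPKM) and Heyl (0.349, 0.402, 0 and 11.4 against 2.699, 5.08, 0 and 7.602 RPKM). Nr2e1, the stem cell factor Tlx, was at 2.997, 9.82, 0.202 and 8.44 against 0.4395, 1.35, 0 and 3.49 RPKM, higher in BNAP/GRP1 in every batch.

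The myeloid regulators named for GRP2/MP3, Irf8, Syk and Plcg2, were at 81.1, 18.2, 65.5 and 23.4 against 63.6, 47.4, 60.6 and 6.08 RPKM, at 6.44, 1.51, 65.6 and 15.5 against 7.17, 7.07, 59.6 and 1.21 RPKM and at 4.5, 1.99, 15.7 and 2.896 against 4.01, 4.25, 15.8 and 3.3 RPKM, with overlapping groups. Rel, an NF-kB subunit, had a mean log2 difference of -0.09, and Barx2, Msx1 and Smad9 did not reach 1 RPKM in 4 of the 8 libraries. Of the 7 genes named for both populations none passed an unadjusted p of 0.05. Spi1, the master factor of myeloid cells, was at 36.6, 22.8, 192 and 15.7 against 50.4, 14.2, 172 and 8.18 RPKM, Ccl2, a monocyte chemokine, at 124, 446, 483 and 17.5 against 267, 394, 527 and 531 RPKM, and Igf2bp3, an RNA-binding protein of fetal tissue, at 17.2, 2.36, 0.341 and 7.49 against 5.95, 22.1, 0.372 and 3.503 RPKM. Etv1 was at 23.4, 8.07, 1.34 and 9.66 against 7.38, 30.7, 1.18 and 12.7 RPKM. For Etv1 and Igf2bp3 BNAP/GRP1 was the higher in batch 1 and GRP2/MP3 in batch 2.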

How the data were processed

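RNA of sorted cells from postnatal day 5 pups was polyA-selected, amplified, and sequenced on a NextSeq500. Per the submitters' processing notes and the study's methods, the authors ran FastQC 0.11.9, cutadapt 3.4, STAR 2.6.1 on GRCm38, Salmon 1.9.0 and DESeq2 1.26.0. The values are RPKM as deposited by the authors, who divided reads by gene length and library size; read totals, the annotation release and strand handling are not given in the sources used here. No read counts were used, and relative depth was inferred from the smallest steps of the values. Of the table's columns, 26 were empty, and 27 symbols that had been turned into dates were restored. Duplicated symbols were resolved by gene identifier.

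Libraries were grouped and paired by the labels. Genes reaching 1 RPKM in 4 or more libraries of these 8 entered the test on log2(RPKM + 1) with limma 3.58.1 (R 4.3.3; lmFit with batch as a block, eBayes with trend, Benjamini-Hochberg, threshold 0.05), which was checked on simulated data. Tables were built with Python 3.11.15 and pandas 2.3.3. The labels give the batch of each library, so the numbers pair them. The deviations of same-numbered libraries from their population means correlated across genes at 0.09, 0.01, 0.83 and 0.44 in batches 1 to 4, and at 0.58 and 0.49 across the numbers of batches 1 and 2.

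Named genes were, in each direction, the 12 with the largest mean difference among genes with a mean of at least 5 RPKM, an unadjusted p under 0.05 and the same sign in every batch, the 8 with the largest smaller difference of batches 1 and 2, those behind the sorting antigens, those the study named, and the 4 most abundant of every other list, leaving out predicted genes and ribosomal pseudogenes. Other genes, such as further pericyte genes, were named after their values were seen. The members and the 37 gene lists were chosen with earlier results of these data known. A few genes of the lists are not reported here by name. Positions are from GENCODE vM21 and promoters from RefSeq. The alternatives were no block, all 20 libraries, another pseudocount, other filters, scalings and weights, and each batch left out.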

Additional observations from a re-analysis of the deposited data

Results flagged for a closer look

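The 4 libraries of a population were searched for 1 value far from the others in log2(RPKM + 1), by Dixon's ratio of the gap to the range, against its critical value for 4 libraries. Of 136 sets of 4 searched, 23 (16.9%) held such a library. For values with a normal spread, chance flags about 1 in 20. Some flagged sets, such as mt-Tm in GRP2/MP3, held 0 RPKM in all the other libraries, which fixes the ratio in advance. Many of the genes were also chosen by these same values, so the share cannot be set against chance. In BNAP/GRP1 the library of batch 4, the shallowest, was the one far above the others in 8 sets, with Rarres2 at 12.2, Fam162b at 4.72, Atp13a5 at 8.101, Pdgfra at 24.1, Lhx1 at 10.1, Tbx2 at 10.6, Heyl at 11.4 and Msx1 at 20.4 RPKM. In GRP2/MP3 the library of batch 4 stood apart in 10 sets, with ENSMUSG00000105995 at 5.09, mt-Tm at 79.9, RP23-447A7.2 at 6.86, RP24-190F20.4 at 8.37, ENSMUSG00000105464 at 11.6, Snora31 at 209.7, Zfp57 at 244, Irf8 at 6.08, Barx2 at 0.577 and Smad9 at 0.738 RPKM. In GRP2/MP3 the library of batch 3 stood apart in 4 sets, with AC099934.1 at 151, Cldn5 at 0.335, Plcg2 at 15.8 and Gpr34 at 0.355 RPKM. In GRP2/MP3 the library of batch 2 stood apart in 1 set, with Mir3470b at 11.2 RPKM. All but 1 of these came from batches 3 and 4. Of the genes higher in GRP2/MP3 in every batch, those touched were Snora31, Rarres2 and Cldn5, the last being low in batch 3. The causes of these values were not tested.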

How the results depend on the processing

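The count of genes with an adjusted p under 0.05, 0 in the paired limma fit, was 0 to 186 with each batch left out, 1 with all 20 libraries and batch 3 left out, 2394 with library weights and 0 in the other alternatives, including the fit with no replicate block. The paired fits without batch 1 and without batch 3 gave no weight to a gene's own spread over the pairs. Genes at an unadjusted p under 0.05 numbered 198 for BNAP/GRP1 and 87 for GRP2/MP3. Without the replicate block they were 33 and 30. With all 20 libraries and the block they were 413 and 116, without BNAP/GRP1 of batch 4 they were 83 and 216, and without batch 3 they were 527 and 145. Median-of-ratios scaling gave 127 and 154, quantile normalization 149 and 133, library weights 2270 and 1860, and batches 1 and 2 alone 102 and 150. Leaving out each batch gave 71 to 836 and 83 to 258. A pseudocount of 0.1 moved the counts of genes with a 2-fold difference in batches 1 and 2 from 249 and 290 to 507 and 508. The stricter filter left no Hox gene to summarise. The causes of these changes were not tested. The genes named by their mean difference and sign in every batch kept their direction under every alternative, and 22 of their values, against 330 others, passed the adjusted threshold. Fits that leave out or reweight whole batches could not reverse these genes, since the same sign in every batch chose them. Their kept direction is therefore no test of it. Depth limits BNAP/GRP1 of batch 4 most, where 1 read on a gene of 1 kb is worth 8.15 RPKM.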
